A study of Mus musculus with 18 samples.

Results

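Transcripts of 10 astrocyte genes, Gfap, Aqp4, Aldh1l1, Slc1a2, Slc1a3, Gja1, Gjb6, Aldoc, S100b and Ednrb, were examined in RNA-Seq libraries of the ventral dentate gyrus granule cell layer of male mice. They were selected by symbol as established markers of astrocytes together with the endothelin receptor gene Ednrb, and all 10 were present among the 34620 genes counted and among the 17421 genes with enough reads to be tested. The 6 libraries were 2 from WT, 2 from F1 and 2 from F2 males of the outbred Swiss Webster strain, aged 8 to 12 weeks. All animals were genetically WT. WT males came from a WT lineage bred in parallel, with WT mothers and grandmothers, F1 males were WT sons of H mothers, which were heterozygous for a serotonin 1A receptor knockout (genotype 5HT1A-/+), born in litters of heterozygous parents, and F2 males were born to F1 females mated with WT males, so that the receptor mutation was carried in the generation of their maternal grandparents. The comparisons asked which transcripts differ in the adult sons and grandsons of H females. How many animals contributed to a library is not given in the sources used here, and p-values measure the spread between these libraries.

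Astrocytes are glial cells that enclose synapses and contact blood vessels. They remove glutamate and potassium released by neurons, are joined into networks by gap junctions, and carry receptors for vasoactive peptides. The endothelins are such peptides. They are cut from larger precursors by endothelin-converting enzymes and bind 2 receptors, type A, encoded by Ednra, and type B, encoded by Ednrb, the latter present on astrocytes and on endothelial cells. Astrocytes of the dentate gyrus lie in all layers, so that a dissected granule cell layer contains them beside the granule neurons.

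Of the 10 genes, Ednrb and Aldh1l1 were the 2 that passed the threshold both in F1 and in F2, and Gjb6 was the member with the smallest difference from WT in both. Their promoter windows are shown for this contrast. Each runs from 250 bases before to 50 bases after the start of transcription in the RefSeq table of the GRCm38.p6 build, printed in the direction of transcription, and each was found once, without mismatch, on its chromosome of mm9 (NCBIM37), the build of the counts. The window of Ednrb lies at chr14:104242869-104243168 on the minus strand, and that of Gjb6 at chr14:57752399-57752698 on the minus strand. That of Aldh1l1 lies at chr6:90500537-90500836 on the plus strand. It is inside the span of the gene in the GENCODE M1 annotation and not at its first base (chr6:90436421). Capitals mark a GC box (GGGCGG) or a CCAAT box, here read on the opposite strand as ATTGG.
Ednrb: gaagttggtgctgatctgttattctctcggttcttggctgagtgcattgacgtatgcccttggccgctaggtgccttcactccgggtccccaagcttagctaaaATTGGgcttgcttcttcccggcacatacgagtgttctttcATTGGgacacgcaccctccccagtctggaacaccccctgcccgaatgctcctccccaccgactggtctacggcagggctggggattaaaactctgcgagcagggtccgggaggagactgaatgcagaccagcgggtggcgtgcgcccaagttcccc
Aldh1l1: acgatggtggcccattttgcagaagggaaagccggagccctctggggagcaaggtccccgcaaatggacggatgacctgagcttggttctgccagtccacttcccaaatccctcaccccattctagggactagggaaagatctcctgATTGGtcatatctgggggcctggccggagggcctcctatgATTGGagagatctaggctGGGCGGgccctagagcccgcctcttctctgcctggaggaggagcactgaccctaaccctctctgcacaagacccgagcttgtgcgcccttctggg
Gjb6: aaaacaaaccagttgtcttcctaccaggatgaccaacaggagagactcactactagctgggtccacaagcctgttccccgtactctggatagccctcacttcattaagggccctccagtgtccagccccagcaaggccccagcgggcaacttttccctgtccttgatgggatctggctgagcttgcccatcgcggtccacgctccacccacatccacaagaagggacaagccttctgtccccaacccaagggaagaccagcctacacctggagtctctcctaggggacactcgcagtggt
Ednrb had a CCAAT box starting at -146 and another at -106 relative to the start, and Aldh1l1 had CCAAT boxes at -103 and -63 and a GC box at -45. None of the searched motifs was in the window of Gjb6. Searched on both strands over the 9 members with a window in the table, CCAAT was found in 4 (Aldh1l1, Slc1a3, S100b and Ednrb), GGGCGG in 3 (Aldh1l1, Slc1a3 and Aldoc), TTCNNNGAA, the palindrome bound by STAT factors, in 3 (Gfap, Slc1a3 and Aldoc), TATAAA in 1 (Slc1a3) and CAGCTG in 1 (Slc1a2). Of all 32544 promoter windows of the table, 37.4% held CCAAT, 35.9% GGGCGG, 8.33% TTCNNNGAA, 13.6% TATAAA and 16.4% CAGCTG. These matches describe the letters of the windows only.

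Reads counted on genes ranged from 26358165 to 33727936 per library. Levels are given as CPM, counts relative to library size after TMM normalization, which scales each library so that most genes are level between libraries. Reads on no annotated exon made up 12.6 and 14.2% of the file totals in WT and between 9.18 and 11.6% in F1 and F2, and the part of this difference in the results was not tested. Together the 10 genes took 0.252 and 0.276% of the counted reads in WT, 0.303 and 0.371% in F1, and 0.422 and 0.343% in F2. Every F1 and F2 library was above both WT libraries in this share. In dissected tissue, more astrocytes in the piece cut out and more RNA per astrocyte cannot be told apart. Which cells each dissected piece contained was not measured. Slc1a2 alone made up between 46.6 and 48.8% of the members' reads in each library.

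Compared per kilobase of exon, the order in WT ran from Aldoc (129 and 118 CPM per kb) and Slc1a2 (88.5 and 102) to Ednrb (5.37 and 6.70) and Aldh1l1 (5.34 and 4.87). In between came Gja1, Gfap, S100b and Slc1a3, of which Gja1, Gfap and S100b each overlapped the next in the WT libraries. Aqp4 (18.3 and 25.3) and Gjb6 (15.9 and 13.9) followed, without overlap with their neighbours in that order. Ednrb was thus among the least abundant of the 10 transcripts. The order was the same in F1 and F2 except that Gfap was above Gja1.

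The mean levels of all 10 genes were above WT in F1 and in F2, to unequal degrees, and part of these differences passed the test. With the exact test of edgeR and Benjamini-Hochberg adjustment over all tested genes, 2 of 10 members (Ednrb and Aldh1l1) were higher in F1 at adjusted p under 0.01, a threshold that 3.77% of all genes passed upward and 8.54% downward. In F2, 7 of 10 (Ednrb, Gfap, Aldh1l1, Slc1a2, Gja1, Aldoc and S100b) were higher, against 3.86% of all genes upward and 8.10% downward. No member was lower than WT in either comparison, and all 10 log2 fold changes were positive in both, so that none was lower at an unadjusted p under 0.05 by this test or past the threshold by DESeq2. The median log2 fold change of the members was 0.36 in F1 and 0.52 in F2, compared with 0.0094 and -0.0004 over all genes tested. Both comparisons use the same 2 WT libraries and are not independent of each other. At an unadjusted p under 0.05, 8 members were higher in F1 and 10 in F2. Of all 17421 genes, 5671 in F1 and 5647 in F2 were under 0.05 unadjusted, in either direction.

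**Figure D1:**
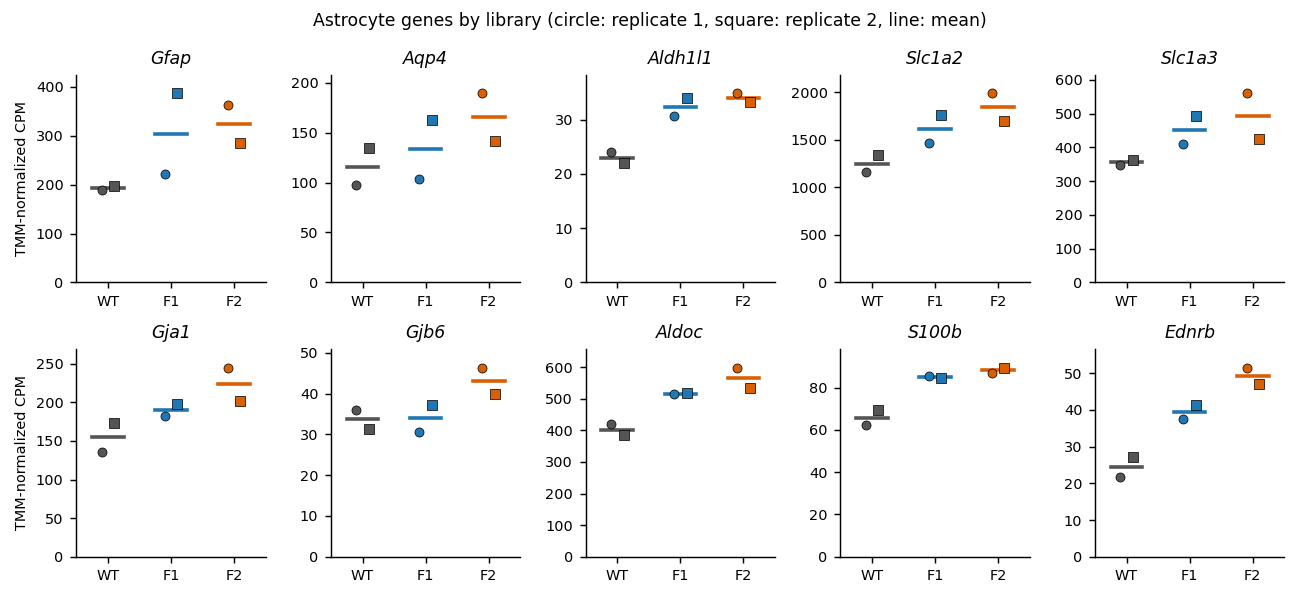
TMM-normalized CPM (y axis, from 0) of each astrocyte gene in the 2 libraries of WT, F1 and F2, with circles for replicate 1, squares for replicate 2 and lines for the mean. All 4 F1 and F2 libraries lie above both WT libraries in 8 of the 10 panels, the exceptions being Aqp4 and Gjb6.

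The receptor gene Ednrb (chr14:104213842-104243390, minus strand) was at 21.7 and 27.0 CPM in WT, 37.4 and 41.3 in F1, and 51.5 and 47.2 in F2. The 3 groups did not overlap, with WT lowest and F2 highest. Its raw counts were 737 and 768 in WT, 1134 and 1274 in F1, and 1377 and 1271 in F2, so that counting error was small beside the spread between libraries. Ednrb was 1.62-fold higher in F1 (log2 fold change 0.69, SE 0.14, adjusted p = 4.26e-05 by the exact test of edgeR) and 2.03-fold higher in F2 (log2 fold change 1.02, SE 0.14, adjusted p = 2.28e-10). It had the largest log2 fold change of the 10 members in both comparisons. In 18 fits with other tests, scalings, filters or a library left out, the reported one included, Ednrb passed the threshold in 18 for F2 and in 17 for F1. Among these fits was 1 with the replicate numbers of F2 crossed, a pairing chosen after the replicate differences were seen. The F1 call was lost without WT replicate 1, the lower WT library, where the log2 fold change of Ednrb was 0.54 (adjusted p = 0.0184).

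Ednrb was also set against the other 9 members within each library, a ratio that does not depend on the scaling between libraries. Ednrb had 8.75 and 9.97 reads per 1000 reads of the other 9 genes in WT, 12.3 and 11.2 in F1, and 12.5 and 13.7 in F2. All 4 F1 and F2 libraries were above both WT libraries. Gjb6 was the opposite case, with 14.6 and 11.6 reads per 1000 reads of the other 9 in WT, 10.1 and 10.2 in F1, and 11.3 and 11.6 in F2. All 4 F1 and F2 libraries were below the lower WT library, though F2 replicate 2 only narrowly (11.56 against 11.62 in WT replicate 2). The other 8 members overlapped WT in the same ratio. These ratios are descriptions, and no test was run on them.

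Among the structural and metabolic markers, Gfap, the intermediate filament protein of astrocytes, varied most between the 2 F1 libraries. Its replicates differed by 1.04 times in WT and 1.27 times in F2. Gfap (chr11:102748650-102762226, minus strand) was at 189.8 and 197 CPM in WT, 222 and 387 in F1, and 363 and 286 in F2. All F1 and F2 libraries were above WT, and F1 replicate 2 was 1.74 times F1 replicate 1. Gfap was higher in F2 (log2 fold change 0.75, SE 0.20, adjusted p = 0.00311 by the exact test of edgeR), and its log2 fold change of 0.65 in F1 missed the threshold (SE 0.20, adjusted p = 0.0109). The F1 value of Gfap was 0.21 without F1 replicate 2 and 1.01, past the threshold, without F1 replicate 1. The F2 call of Gfap was lost without either WT library or without F2 replicate 1 (adjusted p = 0.0672, 0.0326 and 0.143) and in DESeq2 (adjusted p = 0.132).

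Aldh1l1, a folate enzyme used as a marker of astrocytes in general (chr6:90436421-90550197, plus strand), was at 24.1 and 22.0 CPM in WT, 30.7 and 34.0 in F1, and 34.8 and 33.2 in F2. The libraries of F1 and F2 were mixed with each other and all above WT. Aldh1l1 was 1.40-fold higher in F1 (log2 fold change 0.49, SE 0.14, adjusted p = 0.0048 by the exact test of edgeR) and 1.48-fold higher in F2 (log2 fold change 0.56, SE 0.14, adjusted p = 0.000951). The F1 call of Aldh1l1 held in 9 of 18 fits and was lost when any library but F1 replicate 1 was left out (adjusted p between 0.0117 and 0.0878), and the F2 call held in 14 of 18 and was lost without WT replicate 2, F2 replicate 1 or F2 replicate 2 (highest adjusted p = 0.0509). Exons of Aldh1l1 overlap those of Gm15756 on the opposite strand, and reads of the pair cannot be told apart in a library that does not mark strand.

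Aldoc, the brain form of the glycolytic enzyme aldolase (chr11:78136470-78141283, plus strand), was at 420.4 and 384 CPM in WT, 514 and 518 in F1, and 598 and 534 in F2. S100b, a calcium-binding protein (chr10:75716598-75723904, plus strand), was at 62.4 and 69.2 CPM in WT, 85.5 and 84.7 in F1, and 86.8 and 89.4 in F2. For both genes the 3 groups did not overlap, and the F1 replicates differed by 1.01 times in each. Aldoc was higher in F2 (log2 fold change 0.49, SE 0.12, adjusted p = 0.000547 by the exact test of edgeR) and had a log2 fold change of 0.36 in F1 (SE 0.12, adjusted p = 0.0164). S100b was higher in F2 (log2 fold change 0.42, SE 0.12, adjusted p = 0.00344) and had a log2 fold change of 0.37 in F1 (SE 0.12, adjusted p = 0.0112). The F2 call of Aldoc was lost without WT replicate 2 or F2 replicate 1 (adjusted p = 0.0318 and 0.063), and that of S100b without WT replicate 1, F2 replicate 1 or F2 replicate 2 (adjusted p = 0.103, 0.0493 and 0.0664).

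The glutamate transporters of astrocytes are encoded by Slc1a2 (GLT-1) and Slc1a3 (GLAST). Slc1a2 (chr2:102498816-102630941, plus strand), the most abundant member by CPM, was at 1164 and 1336 CPM in WT, 1463 and 1756 in F1, and 1988 and 1696 in F2. Slc1a3 (chr15:8584124-8660764, minus strand) was at 347 and 364 CPM in WT, 409 and 494 in F1, and 559.5 and 424 in F2. Both transporters were above WT in all 4 F1 and F2 libraries, and F1 overlapped F2. Slc1a2 was higher in F2 (log2 fold change 0.56, SE 0.14, adjusted p = 0.00066 by the exact test of edgeR), with 0.37 in F1 (SE 0.14, adjusted p = 0.0382). Slc1a3 missed the threshold in both, with 0.47 in F2 (SE 0.15, adjusted p = 0.011) and 0.34 in F1 (SE 0.15, adjusted p = 0.0756). Slc1a2 passed in F1 without F1 replicate 1 (0.50, adjusted p = 0.0088) and lost its F2 call without WT replicate 1 or F2 replicate 1 (adjusted p = 0.0595 and 0.0744), and Slc1a3 gained one without F1 replicate 1, F1 replicate 2 or F2 replicate 2, with DESeq2 and in 2 other fits (adjusted p between 0.00114 and 0.00821). Exons of Slc1a2 overlap Gm13872 on the opposite strand.

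Gja1 and Gjb6 encode connexin 43 and connexin 30, the gap junction proteins that couple astrocytes. Gja1 (chr10:56097106-56110225, plus strand) was at 136 and 173 CPM in WT, 182 and 198 in F1, and 245 and 202 in F2. Gjb6 (chr14:57742140-57752448, minus strand) was at 36.0 and 31.4 CPM in WT, 30.7 and 37.3 in F1, and 46.4 and 39.9 in F2. The groups did not overlap for Gja1, while for Gjb6 the F1 libraries lay on both sides of WT and the F2 libraries above all others. Gja1 was higher in F2 (log2 fold change 0.53, SE 0.14, adjusted p = 0.0023 by the exact test of edgeR), with 0.30 in F1 (SE 0.14, adjusted p = 0.122), and the F2 call was lost without WT replicate 1 or F2 replicate 1 (adjusted p = 0.132 and 0.151). Gjb6 had a log2 fold change of 0.01 in F1 (95% interval -0.28 to 0.30, adjusted p = 0.978) and 0.36 in F2 (0.07 to 0.64, adjusted p = 0.07) and passed the threshold in none of the 18 fits. Its F1 value ranged from -0.13 to 0.16 over these fits.

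Aqp4, the water channel of astrocytic endfeet at blood vessels (chr18:15547903-15562193, minus strand), was at 97.4 and 134 CPM in WT, 104 and 163 in F1, and 189 and 142 in F2. The F1 libraries overlapped WT and the F2 libraries were above both WT libraries. Replicates of Aqp4 differed by 1.38 times in WT, 1.57 times in F1 and 1.34 times in F2. Its log2 fold change was 0.20 in F1 (95% interval -0.21 to 0.61, adjusted p = 0.545 by the exact test of edgeR) and 0.51 in F2 (0.11 to 0.92, adjusted p = 0.0614). The F1 value of Aqp4 was -0.15 without F1 replicate 2 and -0.01 without WT replicate 1, and 0.50 without F1 replicate 1 and 0.46 without WT replicate 2. Its F2 value was 0.30 without F2 replicate 1 and 0.77 without WT replicate 2. Of the 18 fits, 1 called Aqp4 in F2, the likelihood-ratio test with crossed replicate numbers. That pairing was chosen after the replicate differences were seen, and the labels do not give it.

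**Figure D2:**
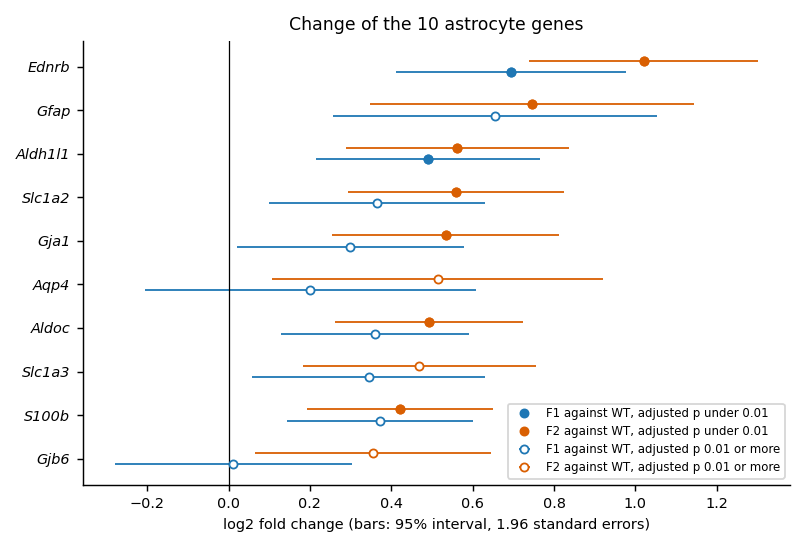
Log2 fold change against WT (x axis) of the 10 astrocyte genes in F1 and F2, with bars for the 95% interval and filled symbols for adjusted p under 0.01 by the exact test of edgeR. Ednrb is at the top with 0.69 and 1.02, and Gjb6 at the bottom with 0.01 and 0.36.

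The direction of the members was also read from the libraries directly. In 8 of 10 genes all 4 F1 and F2 libraries were above both WT libraries, a pattern found in 21.0% of all tested genes, while 23.7% showed the opposite one. No member showed the opposite pattern. The F2 libraries were above both WT libraries in 10 of 10 genes and the F1 libraries in 8. Both counts use the same WT libraries. The shares of all genes with these patterns were not counted, and each is at least the 21.0% of the stricter pattern.

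Compared directly, F2 differed from F1 in 0 of 10 members by the exact test of edgeR, at a threshold that 0.304% of all genes passed upward and 0.436% downward. At an unadjusted p under 0.05 there were 2 (Gjb6 and Ednrb), and by the quasi-likelihood test and by DESeq2 there were 0 at the threshold. Of all 17421 genes, 1506 were under 0.05 unadjusted in this comparison, in either direction. Ednrb was higher in F2 than in F1 by a log2 fold change of 0.33 (95% interval 0.05 to 0.60, adjusted p = 0.411), and Gjb6 by 0.34 (0.05 to 0.63, adjusted p = 0.397). All 10 fitted values were positive, from 0.05 for S100b to 0.34 for Gjb6, with a median of 0.16. The F2 libraries were above both F1 libraries in 5 members (Gja1, Gjb6, Aldoc, S100b and Ednrb) and overlapped them in the other 5. The share of all genes with F2 above F1 in this way was not counted. A larger number of calls in F2 than in F1 was therefore not accompanied by a difference between F1 and F2 that passed the test.

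Endothelin signalling was examined with 8 genes, of which 7 were tested. Of the ligands, Edn1 was at 0.882 and 0.880 CPM in WT, 1.35 and 1.33 in F1, and 2.24 and 1.60 in F2. Edn3 was at 2.27 and 2.71 CPM in WT, 3.40 and 5.96 in F1, and 4.97 and 5.53 in F2. Both ligand transcripts were low, and all F1 and F2 libraries were above WT. Edn1 was higher in F2 (log2 fold change 1.12, SE 0.33, adjusted p = 0.00732 by the exact test of edgeR), with 0.60 in F1 (SE 0.34, adjusted p = 0.21). Edn3 was higher in F2 (log2 fold change 1.08, SE 0.29, adjusted p = 0.00254), with 0.91 in F1 (SE 0.29, adjusted p = 0.0126). Without either WT library or either F2 library, the F2 calls of Edn1 and Edn3 were both lost (highest adjusted p = 0.247 for Edn1 and 0.105 for Edn3), and without F1 replicate 1 Edn3 passed in F1 with 1.28 (adjusted p = 4.46e-05). Edn2 had between 0 and 2 reads per library and was not tested.

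The other receptor, Ednra, known from the smooth muscle of vessels, was at 2.94 and 4.05 CPM in WT, 3.10 and 3.79 in F1, and 4.15 and 3.42 in F2. The groups overlapped, with log2 fold changes of -0.01 in F1 (SE 0.26, adjusted p = 1 by the exact test of edgeR) and 0.12 in F2 (SE 0.26, adjusted p = 0.822). The converting enzymes differed from each other. Ece1 had 34.4 and 32.1 CPM in WT and between 41.7 and 43.7 in F1 and F2, without overlap, and log2 fold changes of 0.36 in F1 and 0.36 in F2 that missed the threshold (adjusted p = 0.0252 and 0.0256). Ece2 had 68.9 and 69.6 CPM in WT, 46.4 and 43.8 in F1, and 51.3 and 49.6 in F2. Ece2 was lower than WT in F1 (log2 fold change -0.62, SE 0.12, adjusted p = 4.57e-06) and in F2 (-0.46, SE 0.12, adjusted p = 0.00139), and the F2 call was lost without either WT or either F2 library (highest adjusted p = 0.0628). Ecel1, a related peptidase of neurons, was at 3.85 and 3.42 CPM in WT and lower in every F1 and F2 library, at most 3.40, with log2 fold changes of -0.27 and -0.42 that did not pass (adjusted p = 0.498 and 0.255).

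**Figure D3:**
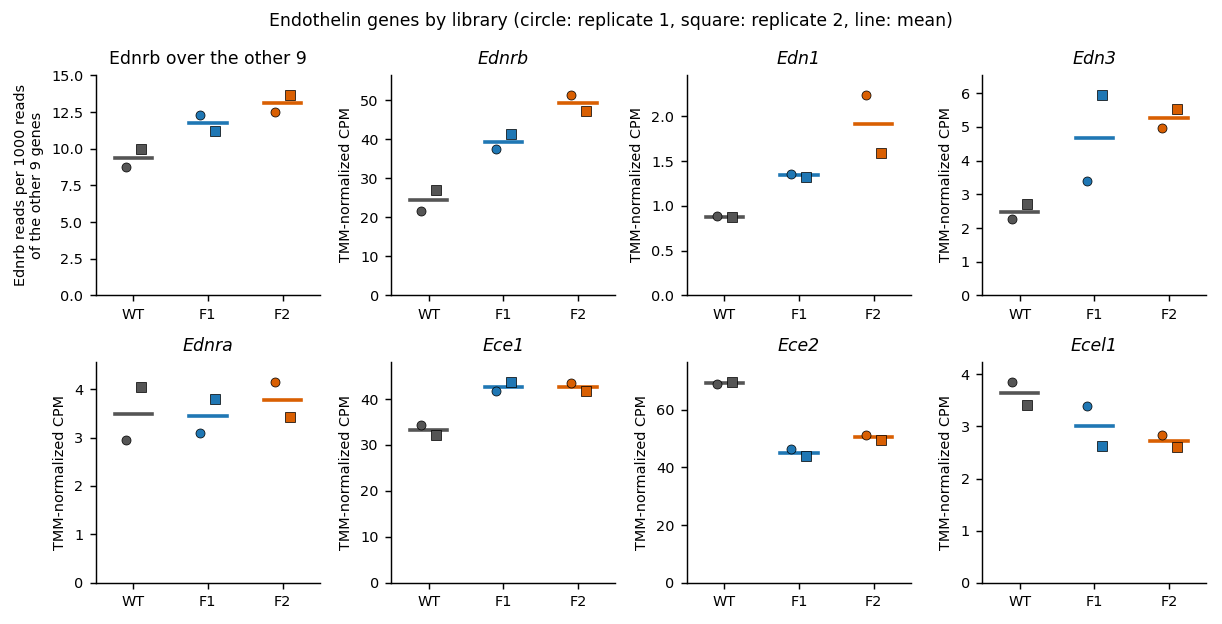
Ednrb reads per 1000 reads of the other 9 astrocyte genes (first panel) and TMM-normalized CPM of the 7 tested endothelin genes (y axes, from 0) in the 2 libraries of WT, F1 and F2, with circles for replicate 1, squares for replicate 2 and lines for the mean. Ednrb, Edn1, Edn3 and Ece1 are above WT in all F1 and F2 libraries, Ece2 and Ecel1 below, and Ednra overlaps.

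A wider list of 59 astrocyte genes, all of them tested, held genes that were higher and genes that were lower, and most did not pass the test. In F1, 11 were higher and 3 lower by the exact test of edgeR, against 3.77% of all genes upward and 8.54% downward. In F2, 20 were higher and 2 lower, against 3.86% and 8.10%. The median log2 fold change was 0.23 in F1 and 0.40 in F2, below those of the 10 members. In 12 genes the call was made in both comparisons, in the same direction in each. All 4 F1 and F2 libraries were above both WT libraries in 29 genes and below in 4, compared with 21.0% and 23.7% of all genes. The counts fell to 6 in F1 without WT replicate 1 or without F1 replicate 2, and in F2 to 7 without F2 replicate 1 and to 12 without WT replicate 1.

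Kcnj10, Slc6a11 and Grm3 were among those that rose. Kcnj10, the inward rectifier potassium channel Kir4.1, was at 91.3 and 97.8 CPM in WT, 124 and 168 in F1, and 160.4 and 164 in F2 (log2 fold change 0.63 in F1, adjusted p = 0.000209, and 0.78 in F2, adjusted p = 2.1e-06, by the exact test of edgeR). Slc6a11, a GABA transporter, was at 67.2 and 71.9 CPM in WT, 97.0 and 115 in F1, and 115 and 126 in F2 (0.61 and 0.79). Grm3, the metabotropic glutamate receptor 3, was at 10.7 and 13.4 CPM in WT, 18.4 and 18.5 in F1, and 22.8 and 17.0 in F2 (0.62 and 0.73). All 3 genes were above WT in every F1 and F2 library. The F1 calls of Kcnj10 and Slc6a11 were lost without WT replicate 1 or F1 replicate 2 (Kcnj10 adjusted p = 0.0212 and 0.0367), and that of Grm3 without WT replicate 1 or either F1 library, while the F2 call of Grm3 was lost without WT replicate 1 or F2 replicate 1 (adjusted p = 0.102 and 0.167).

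Other genes that rose encode secreted or surface proteins. Timp3, an inhibitor of matrix metalloproteinases, had the largest increases of the list, with 12.5 and 13.7 CPM in WT, 18.3 and 31.0 in F1, and 35.5 and 25.1 in F2 (0.92 in F1, adjusted p = 0.00127, and 1.21 in F2, adjusted p = 8.92e-06, by the exact test of edgeR). Without F1 replicate 2 the F1 value of Timp3 was 0.50 (adjusted p = 0.125), its F1 call was also lost without either WT library (adjusted p = 0.0481 and 0.0153), and its F2 call was lost without F2 replicate 1 (adjusted p = 0.0115). Mfge8, a bridge in phagocytosis (log2 fold change 0.71 in F1 and 0.73 in F2), Clu, the chaperone clusterin (0.63 and 0.66), Sparc, a matrix protein (0.62 and 0.61), and Hepacam, an adhesion protein of astrocytes (0.55 and 0.65), were higher in both, with all F1 and F2 libraries above WT. Of these, Hepacam lost its F1 call without WT replicate 1 (adjusted p = 0.0103).

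The other genes named by size passed in 1 comparison. Ppp1r3c, a regulatory subunit that directs a phosphatase to glycogen, was higher in F1 (log2 fold change 0.72, adjusted p = 0.0022 by the exact test of edgeR), with 0.59 in F2 (adjusted p = 0.0145). Papss2, which makes the sulfate donor of cells, was higher in F2 (0.62, adjusted p = 0.00959), with 0.57 in F1 (adjusted p = 0.0186), and Tril, a modulator of Toll-like receptors, was higher in F2 (0.68, adjusted p = 0.000202), with 0.44 in F1 (adjusted p = 0.0258). The calls of Ppp1r3c, Papss2 and Tril were each lost without WT replicate 1, and others were lost or gained with a library left out. Among the most abundant uncalled genes were Cst3, Ttyh1 and Atp1b2, with log2 fold changes of 0.10 to 0.27 in F1 and 0.21 to 0.30 in F2. Of these, Ttyh1 and Atp1b2 were above WT in all F1 and F2 libraries, and Cst3 overlapped WT.

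Slc15a2, Daam2 and Ntsr2 were lower. Slc15a2, a peptide transporter, was at 90.9 and 49.4 CPM in WT, 35.9 and 37.0 in F1, and 33.9 and 38.0 in F2 (log2 fold change -0.95 in F1, adjusted p = 0.000193, and -0.97 in F2, adjusted p = 0.000152, by the exact test of edgeR). WT replicate 1 stood far above the rest, and without it the values of Slc15a2 were -0.44 and -0.45 (adjusted p = 0.0535 and 0.0508). The F2 call of Slc15a2 was also lost without F2 replicate 1 (adjusted p = 0.0329). Daam2, a regulator of Wnt signalling, had log2 fold changes of -0.50 and -0.47 (adjusted p = 0.00144 and 0.00298), and its calls were lost without WT replicate 1, and without F1 replicate 2 or F2 replicate 1 (highest adjusted p = 0.0661 in F1 and 0.195 in F2). Ntsr2, a neurotensin receptor of astrocytes, was at 110.1 and 115 CPM in WT, 65.6 and 59.9 in F1, and 97.2 and 98.7 in F2. It was lower than WT in F1 (log2 fold change -0.85, adjusted p = 8.81e-11) and had -0.20 in F2 (adjusted p = 0.22). Ntsr2, named after its values were seen, was the 1 gene of the list that differed between F2 and F1 (log2 fold change 0.64, adjusted p = 2.5e-05).

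**Figure D4:**
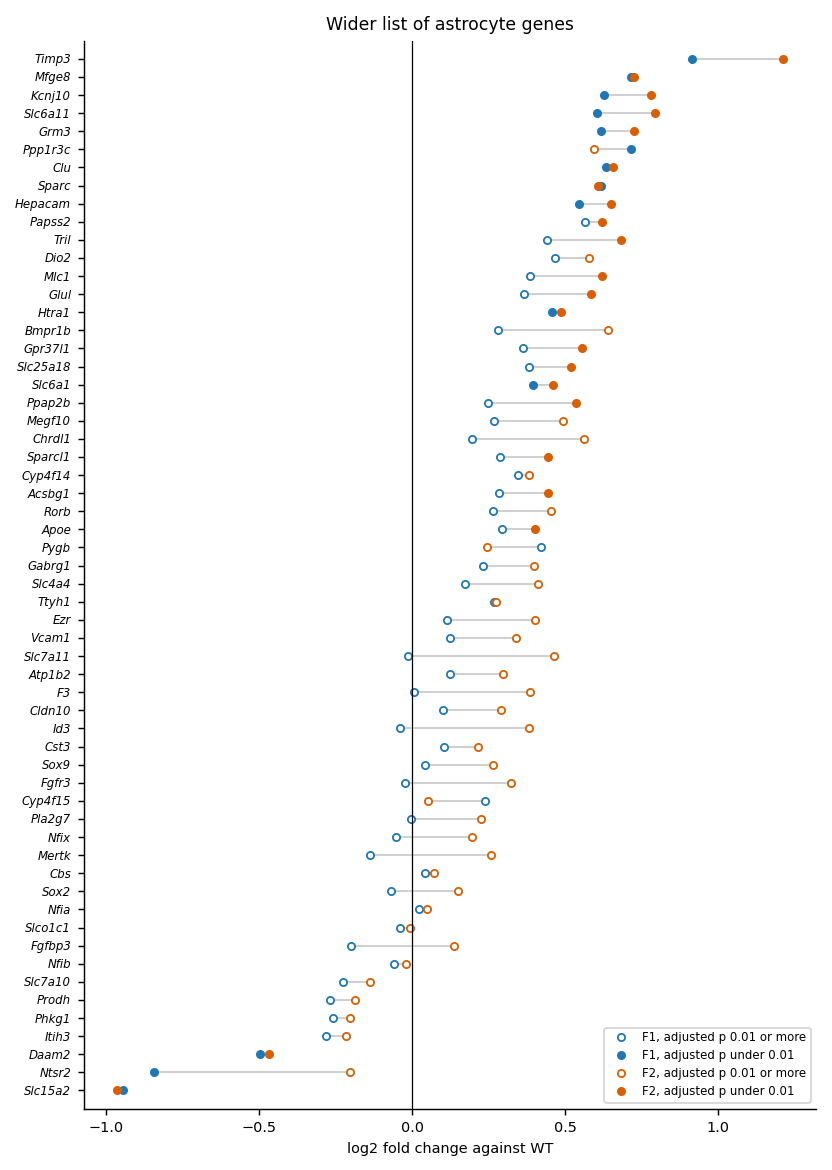
Log2 fold change against WT (x axis) of genes of the wider astrocyte list in F1 and F2, sorted by their mean, with filled symbols for adjusted p under 0.01 by the exact test of edgeR. Timp3 is at the top with 0.92 and 1.21, and Slc15a2 at the bottom with -0.95 and -0.97.

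Transcripts known to rise in reactive astrocytes were examined with a list of 15, of which Lcn2 and Steap4, with at most 4 reads in a library, were not tested. Serpina3n, a protease inhibitor, was the 1 of 13 tested that passed. It was at 96.0 and 73.1 CPM in WT, 167 and 163 in F1, and 109.5 and 119 in F2. Serpina3n was higher in F1 (log2 fold change 0.96, SE 0.14, adjusted p = 4.3e-10 by the exact test of edgeR), with 0.43 in F2 (SE 0.14, adjusted p = 0.014) and past the threshold in F2 without WT replicate 1 (0.65, adjusted p = 0.000833). For F2, 0 of 13 passed by this test, the quasi-likelihood test and DESeq2, with 4 at an unadjusted p under 0.05. Of these 4, Serpina3n and Vim (log2 fold change 0.47) were higher, and Timp1 (-1.59) and C4b (-0.38) were lower. Of all 17421 genes, 5647 were under 0.05 unadjusted in F2. At the threshold, 3.77% of all genes passed upward in F1 and 3.86% in F2. The median log2 fold change of the list was 0.18 in F1 and 0.19 in F2. Positive values were found for 8 of the 13 genes in F1 and for 7 in F2.

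Markers of other cells moved in the same libraries, and their part in the values of the astrocyte genes was not tested. The summed CPM of 11 microglial genes was 171 and 168 in WT, 206 and 243 in F1, and 269.5 and 237 in F2. Of these genes, 1 was called higher in F1 and 6 in F2, against 3.77% and 3.86% of all genes. Examples were C1qb, a complement subunit, Csf1r, a growth factor receptor, and Tmem119, called in F2 (log2 fold change 0.73, 0.55 and 0.62). All 11 microglial values were positive in both comparisons. The F2 count of 6 was 1 without WT replicate 1, WT replicate 2 or F2 replicate 1, 3 without F2 replicate 2, and 1 in the quasi-likelihood test. The F1 count was 0 without either WT library or F1 replicate 2 and in the quasi-likelihood test, and 4 without F1 replicate 1. All 4 F1 and F2 libraries were above both WT libraries in 9 of the 11 microglial genes, against 21.0% of all genes, and overlapped WT in 2. Aif1, a microglial marker, was among those that overlapped, at most 4.19 CPM in WT and between 4.11 and 4.95 in F1 and F2. The F2 calls of C1qb, Csf1r and Tmem119 were lost without either WT library or F2 replicate 1 (highest adjusted p = 0.0999, 0.116 and 0.0861, by the exact test of edgeR), that of Tmem119 also without F2 replicate 2.

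The 9 endothelial genes summed to 124 and 134 CPM in WT, 140.2 and 166 in F1, and 173 and 164 in F2. Ly6c1 was called in F1 (log2 fold change 0.69) and Pecam1 and Abcb1a in F2 (0.97 and 0.82), against 3.77% and 3.86% of all genes upward. Ednrb, also a gene of endothelial cells, was at 21.7 and 27.0 CPM in WT, 37.4 and 41.3 in F1, and 51.5 and 47.2 in F2. All 4 F1 and F2 libraries were above both WT libraries in 6 of the 9 endothelial genes, against 21.0% of all genes, and overlapped WT in 3. The endothelial marker Cldn5 was at 22.9 and 22.7 CPM in WT and between 23.0 and 30.0 in F1 and F2. The call of Ly6c1 was lost without WT replicate 2 or F1 replicate 2 (adjusted p = 0.0625 and 0.0237 by the exact test of edgeR), that of Pecam1 without WT replicate 2 or F2 replicate 1 (adjusted p = 0.0132 and 0.0246), and that of Abcb1a without any 1 of the WT and F2 libraries (highest adjusted p = 0.0478). For 8 mural genes of vessels, 0 passed in F1 and 0 in F2 by the exact test of edgeR, the quasi-likelihood test and DESeq2, with 3 and 2 at an unadjusted p under 0.05. Of all 17421 genes, 5671 in F1 and 5647 in F2 were under 0.05 unadjusted.

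The 14 oligodendrocyte genes were the most variable list, with summed CPM of 1179 and 2124 in WT, 3183 and 2398 in F1, and 1659 and 3104 in F2. Their order over the libraries was not that of the astrocyte genes, since F2 replicate 1 was highest for the sum of the 10 astrocyte genes (4162 CPM, against 2499 and 2738 in WT) and below WT replicate 2 for the oligodendrocyte sum. Cldn11, Mal, Cnp and Mag were called in F1 (log2 fold change 1.24, 1.05, 0.88 and 0.85), and Cldn11 and Cnp in F2 (1.00 and 0.82). Of all genes, 3.77% were called higher in F1 and 3.86% in F2. By DESeq2 and by the quasi-likelihood test without a replicate block, 0 oligodendrocyte genes passed in either comparison, while the block in the latter test gave 2 for F1 and 0 for F2. Leaving out 1 library gave 0 to 10 for F1, with 1 without F1 replicate 1 and 10 without WT replicate 2, and 0 to 6 for F2, with 0 without F2 replicate 2 and 6 without WT replicate 2 or F2 replicate 1, and without WT replicate 1 the 4 genes lost their calls (for Cldn11, adjusted p = 0.0185 in the F1 comparison and 0.108 in that of F2, edgeR exact test). Of 8 genes of oligodendrocyte precursors, Gpr17, Pdgfra and Olig1 were called in F1 (0.82, 0.69 and 0.51) and Pdgfra and Olig1 in F2 (0.88 and 0.58). Without WT replicate 1 the calls of Pdgfra and Olig1 were lost in both (highest adjusted p = 0.101), Pdgfra also lost its F1 call without F1 replicate 2, and Olig1 its F1 call without any 1 of the WT and F1 libraries and its F2 call without F2 replicate 2.

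The labelled tissue, the granule cell layer, carried its markers in all libraries. Prox1, the transcription factor of dentate granule neurons, was between 228 and 345 CPM, and Calb1 between 265 and 392 CPM. The 11 granule neuron genes summed to 1385 and 1374 CPM in WT, 1152 and 1405 in F1, and 1658 and 1514 in F2. Among these genes, 4 had a positive log2 fold change in F1 and 9 in F2, with medians of -0.11 and 0.26. Plk5, a polo-like kinase, was the 1 called among them, lower than WT in F1 (log2 fold change -0.61) and in F2 (-0.47), and without WT replicate 1 it was not called (-0.43 and -0.29, adjusted p = 0.0374 and 0.22 by the exact test of edgeR). Its F2 call was also lost without either F2 library. The 7 general neuronal genes summed to 6519 and 6599 CPM in WT, 7793 and 7249 in F1, and 5708 and 6338 in F2, with Stmn2 called in F1 (0.46). Of all genes, 3.77% were called higher and 8.54% lower in F1, and 3.86% and 8.10% in F2. The call of Stmn2 was lost without WT replicate 1, WT replicate 2 or F1 replicate 1 (adjusted p = 0.101, 0.0175 and 0.0508, by the exact test of edgeR) and in the quasi-likelihood test. Of 9 genes of radial glia-like cells and neuroblasts, 0 passed in F1 and 0 in F2 by the exact test of edgeR, the quasi-likelihood test and DESeq2, with 1 and 1 at an unadjusted p under 0.05. Unadjusted, 5671 genes in F1 and 5647 in F2 were under 0.05 among all 17421. Ependymal and choroid plexus genes summed to between 16.8 and 22.3 CPM, and the ependymal gene Tmem212 had between 0 and 1 read per library.

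**Figure D5:**
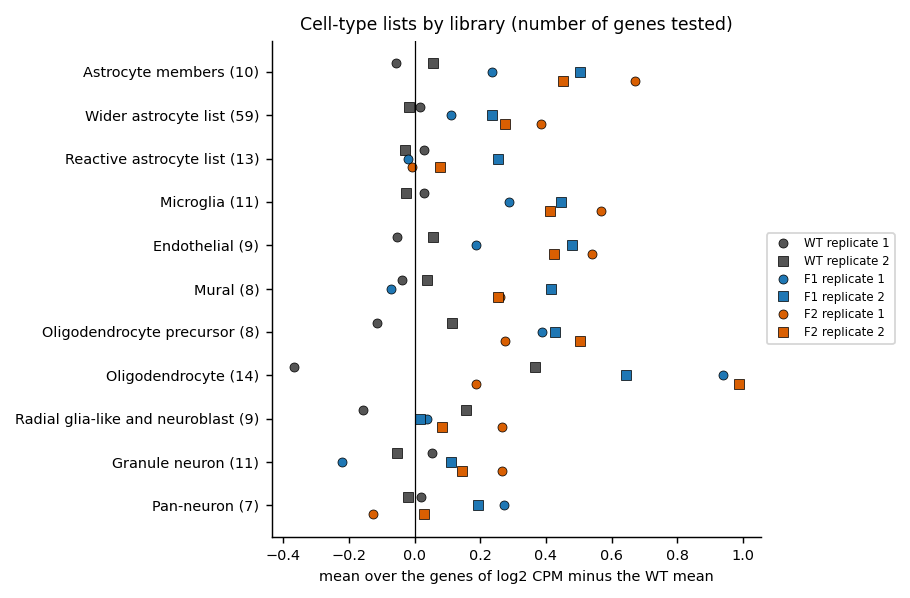
Mean over the genes of each cell-type list of log2 CPM minus the mean of the 2 WT libraries (x axis), with the number of genes tested in parentheses, colours for the groups, circles for replicate 1 and squares for replicate 2. The astrocyte members are at 0.24 and 0.50 in F1 and 0.67 and 0.45 in F2, and the microglial genes at 0.29 and 0.44 in F1 and 0.57 and 0.41 in F2.

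The genes with a pattern most like that of Ednrb over the 6 libraries were taken by Pearson correlation of log2 CPM among 10064 genes whose mean was 10 CPM or more, the other members left out. They were 2510009E07Rik (r = 0.999), S1pr1, a sphingosine-1-phosphate receptor (0.998), Insig1, a regulator of cholesterol synthesis (0.998), B930041F14Rik (0.995) and Minpp1, an inositol polyphosphate phosphatase (0.994). S1pr1 had a mean of 84 CPM in WT, 103 in F1 and 113 in F2, and Insig1 had 38.8, 50.4 and 56.2. A correlation above 0.9 was found for 662 of the genes compared. With 6 libraries that fall into 3 groups, any gene that is higher in F1 and higher again in F2 reaches a high value, so that this is a description of the pattern without a test.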

How the data were processed

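The authors cut the ventral granule cell layer out of cryosections, read its cDNA from 1 end over 50 bases, aligned them to mm9 with TopHat (TopHat2 2.0.2 with Bowtie 1.0.0 in the submitters' processing notes) and deposited raw read counts per gene from HTSeq in intersection-strict mode. This mode leaves out reads that align to several places or reach outside exons, and gene copies are therefore undercounted. For TopHat, the study's methods name a version other than that of the processing notes. Summary rows (5 per file, 35.3 to 46.6% of the totals) were left out. Bisulfite samples (12 of 18) were not analysed here.

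Counts were filtered with filterByExpr, scaled by TMM and tested with exactTest of edgeR 4.0.16 (R 4.3.3), using tagwise dispersions estimated over the 6 libraries, and p-values were adjusted over 17421 genes. The threshold of 0.01 is that of the study's results, while its RNA-Seq methods name 0.05. Standard errors follow from mean counts and tagwise dispersion by the delta method, and libraries of a group varied by 10.6% (coefficient of variation from the common dispersion). At this depth the number of libraries, not counting error, limits the precision. Replicates differed beyond sampling noise (chi-square per degree of freedom between 18.5 and 23). CPM per kb used exon lengths of GENCODE M1. Alternatives were DESeq2 1.42.0, the quasi-likelihood and likelihood-ratio tests of edgeR with and without a replicate block, other scalings, filters and dispersions, a threshold of 0.05, and fits that left out 1 library. The test was run on simulated counts that gave every gene the same common dispersion. That simulation cannot show how the test behaves for genes that vary more than this. The members, the gene lists and the rule for naming genes (the endothelin genes, up to 12 called and 4 abundant uncalled genes of the wider list, up to 4 called genes of each other list, and 5 genes most like Ednrb) were chosen with earlier results of these data known. Daam2, Ntsr2, Prox1, Calb1, Aif1, Cldn5 and Tmem212 were named outside that rule, after their values were seen. Not every gene that this rule covers is reported here, though all enter the counts.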

Additional observations from a re-analysis of the deposited data

Results flagged for a closer look

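The effect in F1 and the effect in F2 differed for 2 genes of the cell-type lists when F2 was compared with F1 by the exact test of edgeR. The log2 fold change of F2 against F1 was 0.64 for Ntsr2, a neurotensin receptor of astrocytes (adjusted p = 2.5e-05), which was lower than WT in F1 (-0.85) and at -0.20 in F2. It was -0.62 for Stmn2, a neuronal tubulin-binding protein (adjusted p = 0.000489), which was higher than WT in F1 (0.46) and at -0.17 in F2. Ntsr2 kept the call with each library left out in turn and lost it in the quasi-likelihood test (adjusted p = 0.0242 without and 0.0439 with the replicate block). Stmn2 lost it without F1 replicate 1 (-0.55, adjusted p = 0.031) or F2 replicate 1 (-0.48, adjusted p = 0.278) and in the quasi-likelihood test (adjusted p = 0.0634). No explanation of either difference was tested. With 2 libraries per group, no library could be tested for standing apart from its group.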

How the results depend on the processing

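All counts here are genes at adjusted p under 0.01. Of the 10 members, 2 were called in F1 and 7 in F2. With the quasi-likelihood test without a replicate block the counts were 1 and 2, and with the replicate block 1 and 1. A replicate block in the likelihood-ratio test gave 1 in F1, dispersion from the groups compared gave 1, and a threshold of 0.05 gave 6. Replicate numbers did not pair the libraries: the correlations of replicate differences across genes were -0.00862 for WT and F1, -0.0898 for WT and F2 and -0.23 for F1 and F2. A likelihood-ratio fit with the F2 numbers crossed, added after seeing this, gave 4 in F1. Leaving out 1 library at a time gave 0 to 4 members for F1 and 1 to 8 for F2. In the wider list, with 14 called in F1, 22 in F2 and 1 between F2 and F1, the quasi-likelihood test gave 7, 12 and 0, with the replicate block 7, 9 and 0, and leaving out a library gave 6 to 16 in F1 and 7 to 25 in F2. The cause of these changes was not tested, except that the threshold of 0.05 admits more genes by its construction. Ednrb was called in F2 in 18 of 18 fits. No called value changed sign. Of the values of single genes under other settings, 2243 stayed on their side of the threshold, 202 dropped below it and 51 passed it.

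The limits are those of 2 libraries per group, of WT libraries shared by both comparisons, and of dissected tissue, in which the number of astrocytes was not measured.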
